A study of Mus musculus with 18 samples.

Results

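Alpha and beta tubulins are the paired subunits of the microtubule, and the genes described here are 4 alpha tubulin genes (*Tuba1a*, *Tuba1b*, *Tuba1c* and *Tuba4a*) and 6 beta tubulin genes (*Tubb2a*, *Tubb2b*, *Tubb3*, *Tubb4b*, *Tubb5* and *Tubb6*). They were named as a list of symbols and matched to the Ensembl rows of the gene counts, where they made up 10 of 38924 rows. All 10 passed the filter on low counts and were among the 16577 genes tested. The list was selected on earlier results of these data, namely the levels and changes of tubulin genes over the same groups, so the values of the members are given as a description, with no test, and support nothing beyond themselves. The table holds 16 protein-coding genes whose symbol starts with Tuba or Tubb, and the 6 outside the list (*Tuba3a*, *Tuba3b*, *Tuba8*, *Tubal3*, *Tubb1* and *Tubb4a*) are given with the other microtubule genes.

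Fibroblasts of heart (HF), kidney (KF) and tail (TF) were isolated from male donors aged 10 weeks of the Rosa mT/mG line on the C57BL/6 background, a reporter strain whose cells carry a red fluorescent membrane protein, and were grown for 10 days. One part of the cells was placed on gelatin foam beneath the kidney capsule of C57BL/6J recipients aged 10 to 11 weeks, and CD45−;TdTomato+ cells were sorted 3 days later (HFs, KFs and TFs), so that every transplanted group, whatever its organ, lay in a kidney. The rest were plated again and stayed in culture for 3 further days (HFc, KFc and TFc). RNA was sequenced in 18 libraries, 3 in each of the 6 groups, with single-end reads of 75 bases. The transplanted cells were recovered by sorting and the cultured controls from the dish, so sorting and transplantation cannot be told apart. The study calls the libraries of a group biological replicates, and where they share a pool of cells the p-values measure only the spread between these samples.

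The libraries held between 17927838 and 32245168 counts, and the lowest count of any member in any library was 57, for *Tubb3* in TFs. Of 8 fibroblast markers, each passed 3 counts in at least 1 library of every group, and their summed level ran from 12386 to 15141 counts per 1000000 (CPM) in the cultured libraries and from 20528 to 111022 CPM in the transplanted ones. The library labelled KFs replicate 3 stood apart. Its 4 Y-linked genes together had 0.83 CPM, against 174 to 222 CPM in the other 17 libraries, and *Xist* had 1716 CPM in it and at most 0.396 CPM elsewhere, although the donors are described as male. It also had the lowest fibroblast marker level of the transplanted libraries, 20528 CPM. For genes named in the text, calls in comparisons with KFs that change without this library are given beside the results. All groups share 1 estimate of the spread, so calls changed in other comparisons too. Without it *Tuba1a* was called in KFc against TFc and in HFs against TFs. In HFc against KFc *Tuba1c* was lost and *Tubb5* gained. *Vash1* was gained in HFs against HFc (log2 fold change 1.47) and *Actg1* in TFs against TFc (-1.02).

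Microtubules grow and shrink by adding and losing heterodimers of 1 alpha and 1 beta tubulin, and mammals encode each subunit in several genes whose products, called isotypes, are alike in their folded body and differ in the acidic tail at the carboxyl end. That tail protrudes from the microtubule surface, where enzymes remove or add a terminal tyrosine and side chains of glutamate, and where associated proteins bind. New tubulin needs the chaperonin CCT and a set of tubulin cofactors to fold, and cells sense free tubulin by autoregulation, in which the factor TTC5 binds the first residues of a nascent tubulin chain and triggers decay of its mRNA. In fibroblasts microtubules serve transport, polarity, migration and mitosis, whereas *Tubb3* and *Tuba1a* are best known from neurons.

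Coding ends of members, and of *Tubb4a*, which is outside the list, are shown because the start holds the codons that autoregulation reads and the end encodes the tail that sets isotypes apart. The first 12 coding bases (in capitals, 5′ to 3′, GENCODE M21 on GRCm38) came in 6 forms in the 9 members shown, 2 in the alpha and 4 in the beta genes, and in every member the 4 codons encoded the same residues within its class.
Tuba1a, Tuba1b and Tuba1c: ATGCGTGAGTGC
Tuba4a: ATGCGCGAGTGC
Tubb2a: ATGCGCGAGATC
Tubb2b: ATGCGAGAGATC
Tubb3 and Tubb4b: ATGAGGGAGATC
Tubb5: ATGAGGGAAATC
Tubb4a: ATGCGGGAAATC
The last 60 coding bases before the stop codon, in lower case, are given for 6 members and *Tubb4a*.
Tuba4a: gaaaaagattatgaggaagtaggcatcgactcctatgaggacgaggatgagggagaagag
Tubb2a: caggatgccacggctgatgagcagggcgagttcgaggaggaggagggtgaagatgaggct
Tubb2b: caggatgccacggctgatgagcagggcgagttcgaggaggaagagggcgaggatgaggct
Tubb3: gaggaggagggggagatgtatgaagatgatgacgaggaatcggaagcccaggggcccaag
Tubb4b: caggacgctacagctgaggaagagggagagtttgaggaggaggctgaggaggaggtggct
Tubb5: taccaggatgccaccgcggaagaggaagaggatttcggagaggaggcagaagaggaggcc
Tubb4a: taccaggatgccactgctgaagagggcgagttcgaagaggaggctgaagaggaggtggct
*Tuba4a* ends in the codon gag and is known as the alpha gene that encodes no terminal tyrosine.

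The near identity of some members bears on their counts. Over aligned coding bases *Tuba1a*, *Tuba1b* and *Tuba1c* were 97.6% to 98.4% identical, *Tubb2a* and *Tubb2b* were 96.5% identical, *Tuba4a* was 85.3% to 85.6% identical to the other alpha genes, and *Tubb3* was 82.3% to 86.3% identical to the other beta members, *Tubb6* the nearest. Of all windows of 75 bases in its annotated transcripts, the length of the reads, 68.2% in *Tuba1a*, 64.3% in *Tuba1b*, 48.9% in *Tuba1c*, 43.2% in *Tubb2a*, 30.2% in *Tubb2b* and 27.7% in *Tubb4b* occurred exactly in another gene or pseudogene, so the split of reads among these genes rests on RSEM's estimate and their single values are uncertain. No such window was found for *Tuba4a*, *Tubb3*, *Tubb5*, *Tubb6* or *Tubb4a*. Of the pseudogenes that share windows, the 8 matched to the count table had at most 2.53 CPM in any library, in *Gm17383*, and the others were not analysed here. *Tuba4a* overlaps *Stk16* and *Tubb4b* overlaps *Fam166a* on the opposite strand, and *Tubb3* overlaps *Gm20388*, which was listed at 0 counts in every library, on its own strand.

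The 250 bases before the start sites of *Tubb3* and *Tubb4b* are shown because *Tubb3* was the member that differed most between organs and *Tubb4b* held the most copies of a searched motif among the 8 members with an entry. Sequences are from RefSeq on GRCm38.p6, chr8:123411303-123411552 on the plus strand for *Tubb3* and chr2:25224703-25224952 on the minus strand for *Tubb4b*, with CCAAT (or its reverse complement ATTGG) and TTTGAA in capitals.
Tubb3: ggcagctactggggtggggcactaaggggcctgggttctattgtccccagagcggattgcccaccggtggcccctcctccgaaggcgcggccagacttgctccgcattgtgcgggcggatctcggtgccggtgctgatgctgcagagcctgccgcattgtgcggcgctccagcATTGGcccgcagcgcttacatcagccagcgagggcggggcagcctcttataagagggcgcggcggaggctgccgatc
Tubb4b: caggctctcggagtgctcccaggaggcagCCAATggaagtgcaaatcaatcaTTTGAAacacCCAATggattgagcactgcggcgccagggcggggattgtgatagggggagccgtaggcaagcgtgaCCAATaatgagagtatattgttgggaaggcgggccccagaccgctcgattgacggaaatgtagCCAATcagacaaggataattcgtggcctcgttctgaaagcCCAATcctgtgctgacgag
On both strands the *Tubb4b* window held 5 CCAAT, 1 TTTGAA and 1 GGGCGG, and the *Tubb3* window held 1 CCAAT, no TTTGAA and 2 GGGCGG. GENCODE starts *Tubb3* at position 123411424, so part of the window before its RefSeq start site lies within the GENCODE gene. Among 32851 promoter windows of this length, 33.8% held CCAAT, 16.0% held TTTGAA, 32.7% held GGGCGG and 12.4% held TATAAA. A match describes letters in the window and does not show that a factor binds there.

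Summed over the 10 genes, tubulin levels were highest in cultured heart cells and lowest in transplanted heart cells. On the level per length, which is counts per kilobase brought to a sum of 1000000 in each library, the sum was 5409, 5248 and 5156 in HFc and 1555, 1228 and 1167 in HFs. It was 2575, 2616 and 2532 in KFc against 2082, 3187 and 2288 in KFs, and 2076, 2162 and 2183 in TFc against 2339, 2076 and 2073 in TFs. Every HFs library lay under every other library of the series, every HFc library above, and in kidney and tail the transplanted libraries overlapped the cultured ones. The members took 0.35% to 0.358% of all counts in HFc and 0.0837% to 0.102% in HFs. In such bulk samples, fewer cells that express a gene and less RNA of it per cell cannot be told apart.

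**Figure D1:**
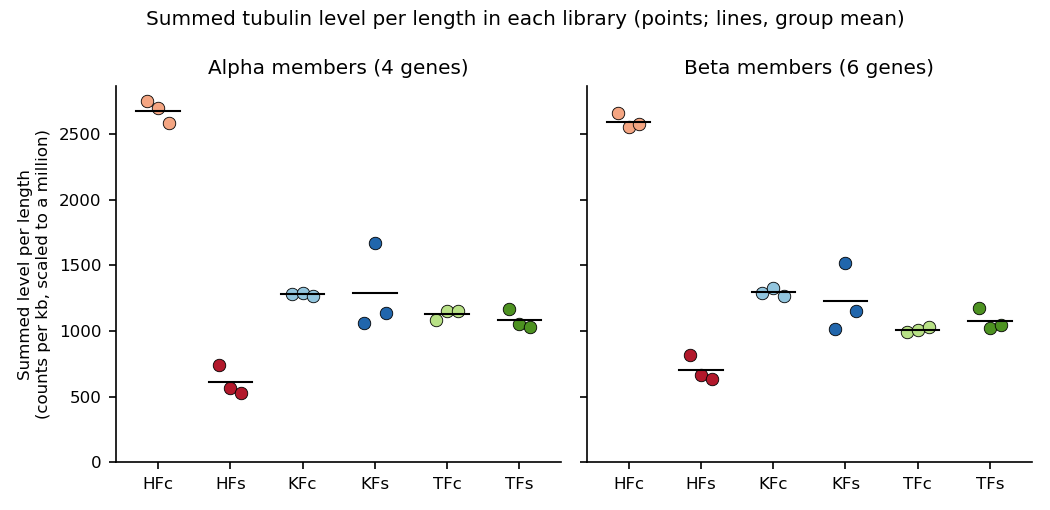
Summed level per length (counts per kilobase, scaled to a sum of 1000000 in each library) of the 4 alpha members (left) and 6 beta members (right) in each library, with replicates 1 to 3 from left to right as points and the mean of each group as a line. HFc stands highest in both classes, with means of 2678 and 2593, and HFs lowest, with 611 and 705.

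With lengths taken as the union of exons, the summed levels of the alpha and beta members were close. The ratio of summed alpha to summed beta level per length was 1.0 to 1.06 in HFc, 0.831 to 0.908 in HFs, 0.97 to 1.0 in KFc, 0.991 to 1.1 in KFs, 1.1 to 1.14 in TFc and 0.985 to 1.04 in TFs. The ratios depend on the length used, and none was computed with other lengths. For *Tubb5* that length was 3327 bases as the union of exons and 1705.5 as the mean of coding transcripts. The beta sum also leaves out *Tubb4a*, which is outside the list and had a mean level per length of 263 in HFc. Among the alpha members, *Tuba1a* and *Tuba1b* made up nearly all of the level in every group. By mean share *Tuba1a* came first in 5 groups, with 67.0% of the alpha sum in HFc and 50.7% in HFs. *Tuba1b* came first in TFs with 49.3%. In KFs the mean shares of *Tuba1a* and *Tuba1b* were close, 46.9% and 46.3%. Their ranges overlapped in KFs and in HFs. The order of these 2 genes also rests on the uncertain split of their shared reads. Among the beta members the leading gene on this measure depended on the group. *Tubb3* led in HFc with 32.6% of the beta sum, and *Tubb5* led in the other 5 groups, with shares from 38.7% in KFc to 52.5% in TFc. In HFs *Tubb3* made up 7.13%. Before division by length *Tubb5* had the higher mean in HFc, 667 CPM against 516 CPM for *Tubb3*. The lead of *Tubb3* in HFc therefore depends on the length used.

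**Figure D2:**
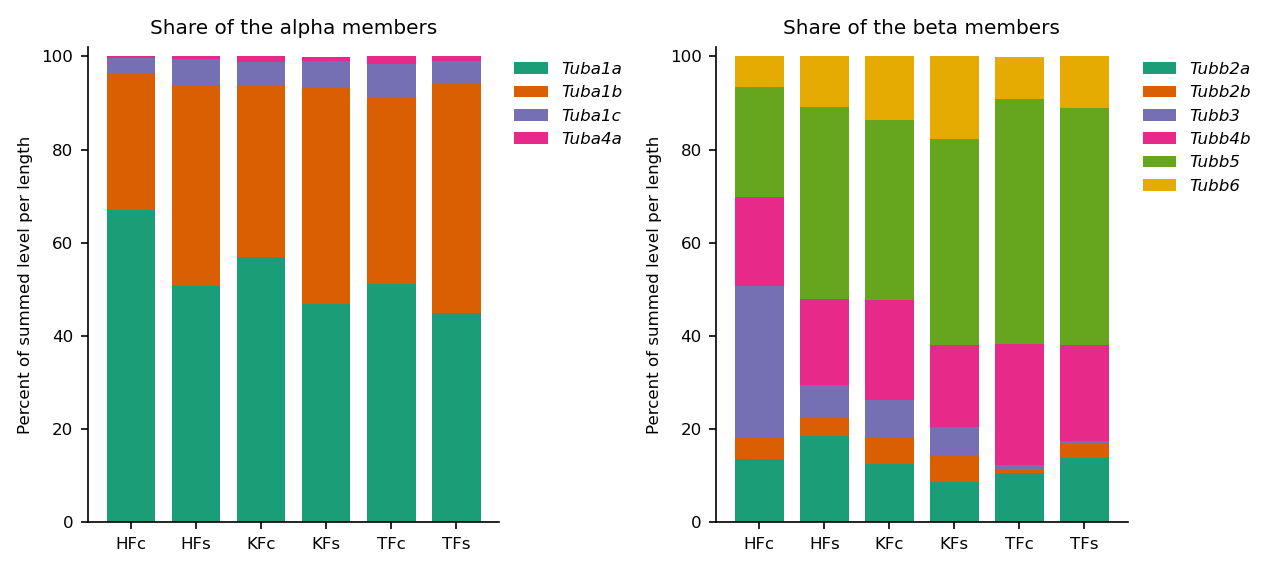
Share of each gene in the summed level per length (percent, mean of 3 libraries) of the alpha members (left) and the beta members (right), by group. *Tubb3* takes 32.6% of the beta sum in HFc, 8.01% in KFc and 0.751% in TFc, and *Tubb5* is the widest band of the other 5 groups.

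Transplanted heart fibroblasts had lower counts of all 10 members than cultured ones, and for all 10 the highest HFs library lay under the lowest HFc library. A gene was called in a transplant comparison where its adjusted p was under 0.05 and its log2 fold change was above 1 or below -1, and all 10 were called lower. Among all genes tested, 9.33% were called lower and 18.3% higher, and 36.3% had groups that did not overlap in the lower direction. The list was chosen with this contrast in view, so nothing is read from that count. The median log2 fold change of the members was -1.52 and that of all genes tested 0.05, and the members ran from -4.06 in *Tubb3* to -1.08 in *Tubb5*.

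Among the alpha genes, *Tuba1a* (ENSMUSG00000072235, chr15:98949837-98953703, minus strand), the main alpha tubulin of developing neurons, had 1049, 1081 and 1040.2 CPM in HFc and 218, 158 and 149.6 CPM in HFs. The groups were far apart, and HFs replicate 1 was the highest of the transplanted libraries. Its log2 fold change was -2.53 ± 0.17 (SE), or 5.78-fold lower. *Tuba1b* (ENSMUSG00000023004, chr15:98931425-98934565, minus strand), a broadly expressed alpha tubulin, had 503, 485 and 455 CPM in HFc and 156, 139.7 and 165 CPM in HFs. It too was apart in every library, with a log2 fold change of -1.59 ± 0.18, or 3.01-fold lower. *Tuba1c* (ENSMUSG00000043091, chr15:99029891-99038110, plus strand), the least abundant of this near-identical trio, had 66.1 to 71.9 CPM in HFc and 18.6 to 28.7 CPM in HFs, a log2 fold change of -1.46 ± 0.21. With the counts of these 3 genes added together, which removes the uncertain split among them, the log2 fold change was -2.13 ± 0.16. *Tuba4a* (ENSMUSG00000026202, chr1:75214228-75219865, minus strand), at 9.16 to 10.1 CPM in HFc and 3.18 to 6.6 CPM in HFs, was the scarcest member in heart cells, and its log2 fold change of -1.09 ± 0.26 lay close to the limit of the call.

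Among the beta genes, *Tubb3* (ENSMUSG00000062380, chr8:123411424-123422015, plus strand), the isotype used as a marker of neurons, had 498, 523 and 526 CPM in HFc and 39.4, 23.8 and 25.8 CPM in HFs. The groups were farther apart than for any other member, and the log2 fold change was -4.06 ± 0.22, or 16.7-fold lower. *Tubb2b* (ENSMUSG00000045136, chr13:34126748-34130466, minus strand), a beta tubulin needed for neuronal migration, had 93.3, 87.2 and 88.8 CPM in HFc and 28.7, 18.4 and 10.7 CPM in HFs. The HFs libraries were spread widely but stayed under HFc, with a log2 fold change of -2.17 ± 0.27. Its close copy *Tubb2a* (ENSMUSG00000058672, chr13:34074274-34078007, minus strand) had 184 to 189 CPM in HFc and 60.7 to 70.2 CPM in HFs, a log2 fold change of -1.44 ± 0.13. The sum of *Tubb2a* and *Tubb2b* changed by -1.64 ± 0.11 on the log2 scale. *Tubb4b* (ENSMUSG00000036752, chr2:25222160-25224702, minus strand), a broadly expressed isotype also used in cilia, had 348, 329 and 329.7 CPM in HFc and 82.6, 79.6 and 91.1 CPM in HFs. These were tight groups, 3.82-fold apart, with a log2 fold change of -1.93 ± 0.12.

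*Tubb5* (ENSMUSG00000001525, chr17:35833921-35838306, minus strand), the common beta tubulin of most dividing cells, had 679.9, 654 and 667 CPM in HFc and 327, 279 and 304 CPM in HFs. It had the smallest difference of the members, 2.11-fold lower, or -1.08 ± 0.14 on the log2 scale. *Tubb6* (ENSMUSG00000001473, chr18:67390717-67402749, plus strand), an isotype whose excess is known to disrupt microtubules, had 131 to 139.9 CPM in HFc and 52.4 to 66.3 CPM in HFs, a log2 fold change of -1.16 ± 0.21. Without HFs replicate 1 or without HFs replicate 3 *Tuba4a* was no longer called, and without HFs replicate 2 *Tubb5* was not, which left 9 called genes in each case.

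**Figure D3:**
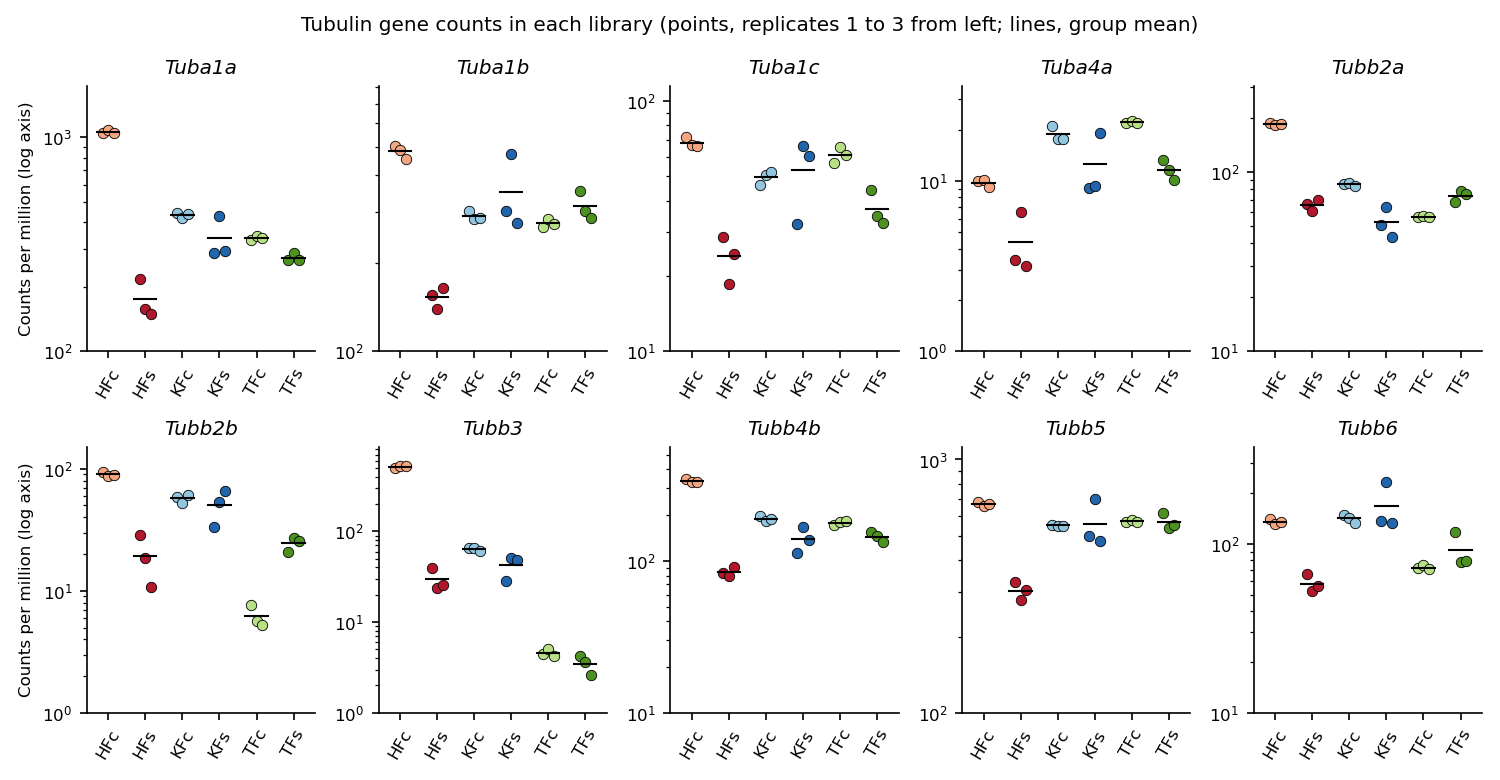
Level in CPM (log axis) of each member in each library, with replicates 1 to 3 from left to right as points and the mean of each group as a line. In heart cells the transplanted libraries lie under the cultured ones for all 10 genes, *Tubb3* lies at 498 to 526 CPM in HFc and at 23.8 to 39.4 CPM in HFs, and *Tubb2b* is higher in TFs than in TFc.

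Kidney fibroblasts showed no such pattern. None of the 10 members was called by edgeR in KFs against KFc, nor by DESeq2, while 5 had an unadjusted p under 0.05. The share of all genes under the unadjusted rule is not given, so nothing is read from such counts here or in the lists below. Among all genes 14.7% were called higher and 7.99% lower. At an adjusted p under 0.05 alone, without the limit on the fold change, 4 members were lower, namely *Tuba4a* (-0.67 ± 0.25), *Tubb2a* (-0.73 ± 0.13), *Tubb3* (-0.64 ± 0.20) and *Tubb4b* (-0.49 ± 0.12), all as log2 fold change ± SE, and by that rule 22.7% of all genes were lower. The groups did not overlap in *Tubb2a*, *Tubb3* and *Tubb4b*, in the direction in which 22.3% of all genes did not overlap. *Tubb3* had 65.1, 65.2 and 61.1 CPM in KFc and 28.4, 50.5 and 48.8 CPM in KFs. *Tubb5* had 552, 548 and 548 CPM in KFc and 498, 697 and 476 CPM in KFs, so that the cultured libraries lay within the range of the transplanted ones. The median log2 fold change of the members was -0.32, and that of all genes 0.09.

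The KFs libraries were the most spread, with an SD of 588 for the summed level per length against at most 208 in any other group. KFs replicate 2 was the highest of the 3 in *Tuba1a*, *Tuba1b*, *Tuba1c*, *Tubb2a*, *Tubb3*, *Tubb4b*, *Tubb5* and *Tubb6*, with 473 CPM of *Tuba1b* against 300.2 and 274, and its summed proliferation markers stood at 1193 CPM against 723 and 629. The library labelled KFs replicate 3 was the highest in *Tuba4a*, with 19.1 CPM against 9.03 and 9.31, and in *Tubb2b*, with 65.6 CPM. Without it *Tuba4a* was called lower, with a log2 fold change of -1.04, and was the only member called. The part of proliferation in these differences was not tested.

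Tail fibroblasts were split. Only *Tubb2b* was called in TFs against TFc, and it was higher. It had 7.63, 5.64 and 5.23 CPM in TFc and 20.6, 27.1 and 25.7 CPM in TFs, so that the groups were apart, and its log2 fold change was 1.97 ± 0.28, or 3.93-fold higher. *Tubb2a* and *Tubb2b* share reads, and their sum changed by 0.65 ± 0.10 and was not called. Among all genes tested, 11.0% were called higher and 5.53% lower. At an adjusted p under 0.05 alone, *Tubb2a* was also higher (0.39 ± 0.13), and *Tuba1c* (-0.72 ± 0.20), *Tuba4a* (-0.93 ± 0.25) and *Tubb4b* (-0.31 ± 0.12) were lower, and by that rule 18.6% of all genes were higher and 20.2% lower. *Tuba4a* had 21.9, 22.5 and 21.7 CPM in TFc and 13.3, 11.5 and 10.1 CPM in TFs, and it was called lower when TFs replicate 1 was left out. In the lower direction 4 members did not overlap (*Tuba1a*, *Tuba1c*, *Tuba4a* and *Tubb4b*), as did 30.7% of all genes, and 4 did not overlap in the higher direction (*Tuba1b*, *Tubb2a*, *Tubb2b* and *Tubb6*), as did 29.6% of all genes. *Tubb5* had 568, 577 and 569 CPM in TFc and 616, 538 and 553 CPM in TFs, with a log2 fold change of -0.01 ± 0.14. *Tubb3* was lower in tail cells than in any other group, with 4.21 to 5.10 CPM in TFc and 2.61 to 4.24 CPM in TFs. TFs replicate 1 was the highest of its group in *Tuba1b* (352 CPM against 301 and 286) and *Tubb6* (117 CPM against 78.0 and 79.2), and its proliferation markers summed to 1059 CPM against 542 and 422.

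**Figure D4:**
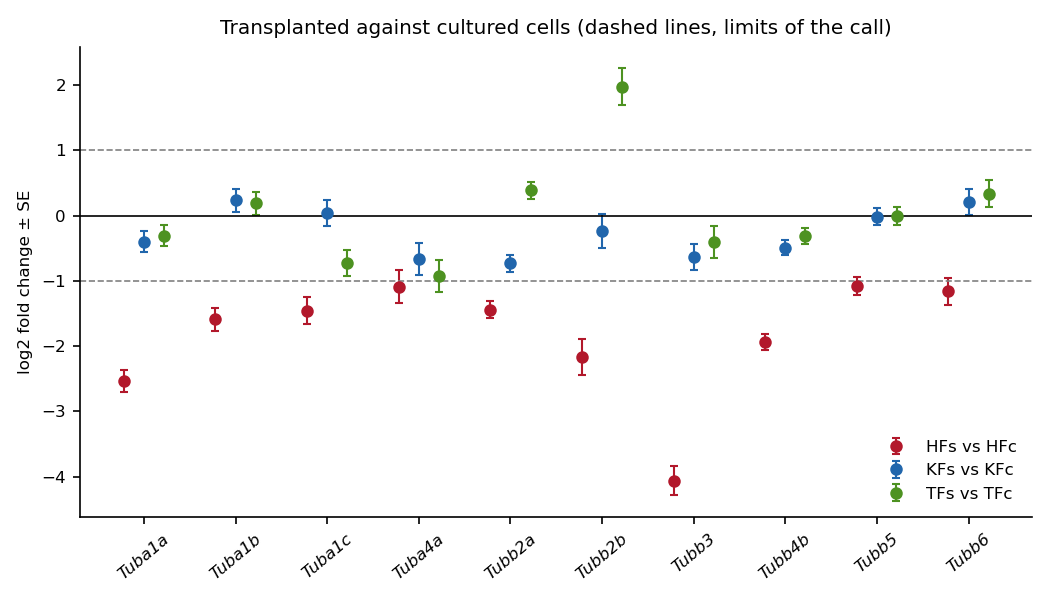
Fitted log2 fold change ± SE of each member in transplanted against cultured cells of heart, kidney and tail, with dashed lines at the limits of the call. All 10 heart points lie under -1, from -4.06 to -1.08, the kidney points lie between -0.73 and 0.24, and *Tubb2b* in tail (1.97) is the one point above 1.

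In culture *Tubb3* and *Tubb2b* had the largest differences between heart and tail and between kidney and tail. Organ comparisons were called at an adjusted p under 0.05 with no limit on the fold change. In HFc against TFc 9 members were called (8 higher and *Tuba4a* lower), where 41.9% of all genes were called in either direction. The call of *Tubb5* (0.38 ± 0.14) was lost without any 1 of the HFc, HFs or TFc libraries. *Tubb3* was 125-fold higher in HFc (498 to 526 CPM) than in TFc (4.21 to 5.10 CPM), a log2 difference of 6.97 ± 0.26, and *Tubb2b* was 16.1-fold higher, 4.01 ± 0.30. *Tubb2a*, *Tuba1a*, *Tubb4b* and *Tubb6* were higher by 1.88 ± 0.13, 1.80 ± 0.16, 1.07 ± 0.12 and 1.06 ± 0.21 on the log2 scale. *Tuba4a* went the other way, with 9.16 to 10.1 CPM in HFc and 21.7 to 22.5 CPM in TFc.

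Cultured kidney cells lay between the other organs in *Tubb3*, with 61.1 to 65.2 CPM, and were apart from both. In KFc against TFc 4 members were called, all higher (*Tubb2a* 0.67 ± 0.13, *Tubb2b* 3.27 ± 0.29, *Tubb3* 3.86 ± 0.23 and *Tubb6* 1.03 ± 0.21), where 36.4% of all genes were called. A fit of these 2 groups alone called 8 members, and its share of all genes is not given here. Over the alternatives the calls over all genes in this comparison ran from 2703 to 8675, beside 6026 in the main fit. In HFc against KFc 8 members were called (7 higher, led by *Tubb3* at 3.11 ± 0.21 and *Tuba1a* at 1.38 ± 0.16, and *Tuba4a* lower), where 29.2% of all genes were called. *Tuba1c* and *Tubb2b* were lost with DESeq2 size factors, library size alone, other filters or the replicate block, which left 6. They were also lost in several fits without 1 library, and 5 members were called when HFc replicate 3 or KFc replicate 1 was left out. *Tubb6* had 131 to 139.9 CPM in HFc and 133 to 149 CPM in KFc, which overlapped, and 70.7 to 74.6 CPM in TFc.

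The neuronal association of these isotypes was set beside 6 neuron markers (*Rbfox3*, *Snap25*, *Syt1*, *Elavl4*, *Nefl* and *Stmn2*). Their summed level was 0.138 to 0.507 CPM in HFc, where 5 of the 6 did not pass 3 counts, against 9.12 to 11.2 CPM in TFc. In TFc that sum was almost wholly *Stmn2*, with 8.84 to 11.2 CPM, and *Rbfox3*, *Snap25*, *Elavl4* and *Nefl* did not pass 3 counts.

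After transplantation the order of organs was different. HFs against TFs gave 5 called members, with *Tubb3* higher (3.31 ± 0.24) and *Tuba1b*, *Tuba4a*, *Tubb4b* and *Tubb5* lower, and 23.1% of all genes were called. KFs against TFs gave 4, with *Tubb2b* (1.06 ± 0.27), *Tubb3* (3.63 ± 0.24) and *Tubb6* (0.91 ± 0.21) higher and *Tubb2a* lower (-0.45 ± 0.13), where 29.1% of all genes were called. HFs against KFs gave 9, with 8 lower and *Tubb2a* higher, where 33.2% of all genes were called. The sum of *Tubb2a* and *Tubb2b*, which share reads, was 0.09 ± 0.10 in KFs against TFs and -0.08 ± 0.10 in HFs against KFs on the log2 scale, and was called in neither. A fit of HFs and KFs alone called 1 member, *Tubb6*, and 883 genes in all, against 5504 in the fit of all libraries. A fit of KFs and TFs alone called 2 members. Over the alternatives the calls over all genes in that comparison ran from 1137 to 5944. Without the library labelled KFs replicate 3 the counts were 6 in KFs against TFs and 9 in HFs against KFs. *Tubb3* kept the order of heart and kidney above tail, with 23.8 to 39.4 CPM in HFs and 28.4 to 50.5 CPM in KFs, which overlapped, against 2.61 to 4.24 CPM in TFs. For *Tuba1a*, *Tuba1b*, *Tuba1c*, *Tubb4b* and *Tubb5*, HFc had the highest mean of the 6 groups and HFs the lowest.

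The responses of the organs were also compared with each other as a difference of log2 fold changes. Relative to the tail response, the heart response was lower in 8 members, all but *Tuba1c* and *Tuba4a*, where 22.8% of all genes were called in either direction. The largest of these differences were in *Tubb2b*, at -4.14 ± 0.39, and *Tubb3*, at -3.66 ± 0.32. Relative to the kidney response, the heart response was lower in 9 members, all but *Tuba4a*, where 26.2% of all genes were called. *Tubb3* led there with -3.43 ± 0.29, followed by *Tuba1a* with -2.13 ± 0.23. Between kidney and tail, *Tubb2a* (-1.12 ± 0.18) and *Tubb2b* (-2.21 ± 0.38) were called, where 11.1% of all genes were called. These comparisons share groups, and their counts did not change when the library labelled KFs replicate 3 was left out. *Tuba4a* was the member whose response differed least between heart and tail (-0.16 ± 0.36).

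Over the 18 libraries the members did not all follow 1 course. On the log2(CPM + 1) scale Pearson's r between pairs of members ran from -0.22 for *Tuba4a* and *Tubb3* to 0.957 for *Tuba1a* and *Tubb4b*, with 0.938 for *Tuba1b* and *Tubb5*, as a description of libraries that fall in 6 groups. The 5 genes outside the list whose log2(CPM + 1) was most like that of the summed members were *Fam120a*, *Chchd3*, *Raly*, *Rps2* and *Rps16*, with r of 0.963, 0.963, 0.962, 0.954 and 0.948 over the same libraries. *Raly* had means of 111 CPM in HFc, 42.1 in HFs, 77.0 in KFc, 66.9 in KFs, 56.4 in TFc and 57.1 in TFs.

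The other tubulin genes were mostly silent or scarce, apart from *Tubb4a* (ENSMUSG00000062591, chr17:57080066-57087782, minus strand), a beta isotype best known from brain. It had 189, 192 and 194 CPM in HFc and 11.4, 21 and 26.5 CPM in HFs. The groups were apart, and the gene fell in transplanted heart cells by 3.22 ± 0.35 on the log2 scale (9.34-fold; adjusted p = 1.67e-06, edgeR quasi-likelihood, adjusted over all genes after Benjamini and Hochberg, as for every adjusted p here). In KFc it had 6.06 to 6.27 CPM and in TFc 0.324 to 0.498 CPM, so that *Tubb4a* had the order of organs seen in *Tubb3*. *Tuba3a*, *Tuba3b* and *Tubal3* did not pass 3 counts in any library, and *Tuba8* had at most 0.352 CPM. *Tubb1*, the isotype of platelets, had no count in HFc and 0.217 to 0.691 CPM in HFs, at least 4.34-fold higher against a floor of 3 counts per library. It was also called higher in KFs, where the groups overlapped at 0 counts, and in TFs, with 0.731 to 0.954 CPM. *Tubg1*, the gamma tubulin that nucleates microtubules, fell in HFs by 1.21 ± 0.17 (adjusted p = 2.9e-05), and in KFs *Tubg2* fell by 1.16 ± 0.23 (adjusted p = 0.000683) and *Tube1*, a tubulin of centrioles, rose by 1.63 ± 0.38 (adjusted p = 0.0021), all on the log2 scale. *Tubg2* was not called in kidney without KFc replicate 2 (-0.95), nor *Tubb1* without any 1 of the KFc libraries or KFs replicate 1.

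The 7 lists of other microtubule genes held 95 genes, of which 89 were tested. In heart 7 rose and 18 fell after transplantation, in kidney 12 rose and 5 fell, and in tail 4 rose and 2 fell, to be read against the shares of all genes given for each comparison. The median log2 fold change of the 89 was -0.33 in heart, -0.01 in kidney and -0.10 in tail, beside 0.05, 0.09 and 0.00 over all genes.

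The chaperones that fold tubulin were also lower in transplanted heart cells. Of 20 genes tested, 9 fell in HFs and none rose, where 9.33% of all genes were called lower and 18.3% higher. The list was chosen with earlier results of these data known. Its median log2 fold change was -0.94 in HFs. With edgeR or DESeq2 none was called in KFs or TFs, with medians of -0.20 and -0.32, while 10 and 13 had an unadjusted p under 0.05. Those that fell were the CCT subunits *Cct7*, *Cct3*, *Cct6a*, *Cct5*, *Tcp1* and *Cct2*, the prefoldin *Pfdn4* and the tubulin cofactors *Tbcc* and *Tbcb*, of which all but *Cct7* and *Pfdn4* were named after their values were seen. *Cct7* had 199.9, 186 and 196 CPM in HFc and 64.7, 62.9 and 68.4 CPM in HFs, which were apart, and fell by 1.51 ± 0.13 on the log2 scale (adjusted p = 1.81e-07). *Pfdn4* had 16.9 to 22.1 CPM in HFc and 5.84 to 8.74 CPM in HFs and fell by 1.36 ± 0.17 (adjusted p = 7.28e-06). The summed level of the 20 genes was 1901 to 1931 CPM in HFc and 855 to 949.7 CPM in HFs, 1791 to 1813 CPM in KFc and 1421 to 2019 CPM in KFs, and 1497 to 1572 CPM in TFc and 1181 to 1408 CPM in TFs. Without HFs replicate 2 *Tbcb* and *Cct2* (-0.99) fell short of the limit, as did *Tbcb* without HFs replicate 3. CCT also folds actin.

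The genes of tubulin mRNA autoregulation showed no call in any organ, by edgeR or by DESeq2, and 3, 6 and 2 had an unadjusted p under 0.05 in heart, kidney and tail. All 7 were tested (*Ttc5*, *Scaper*, *Cnot1*, *Cnot2*, *Cnot3*, *Cnot10* and *Cnot11*), with medians of 0.17 in heart, 0.41 in kidney and 0.03 in tail. *Ttc5*, which recognises the nascent chain, had 13.2, 12.4 and 11.8 CPM in HFc and 9.22, 10.7 and 8.70 CPM in HFs. Its groups did not overlap, but its log2 fold change of -0.33 ± 0.18 did not pass the test (adjusted p = 0.14). *Scaper*, the adaptor between TTC5 and the deadenylase, had a log2 fold change of 0.67 ± 0.18 in heart (adjusted p = 0.00435), short of the limit on the fold change. In kidney *Cnot1*, the scaffold of the deadenylase, had 0.60 ± 0.08 (adjusted p = 1.83e-05).

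Among the 17 tested enzymes that modify tubulin, few were called and in both directions. *Vash2*, a carboxypeptidase that removes the terminal tyrosine of alpha tubulin, had 1.63, 1.40 and 1.12 CPM in HFc and 8.85, 9.44 and 4.91 CPM in HFs. It rose in heart (2.53 ± 0.27, adjusted p = 1.37e-06) and in kidney (1.57 ± 0.25, adjusted p = 8.9e-05). *Agbl5*, a deglutamylase, rose in heart (1.97 ± 0.25, adjusted p = 9.04e-06) and in kidney (1.41 ± 0.24, adjusted p = 0.000184), where *Ttll4* and, with overlapping groups, *Vash1* were called higher too, both named after their values were seen. Without the library labelled KFs replicate 3 the calls in kidney were lost for *Agbl5* (0.92), *Ttll4* (0.87) and *Vash1* (0.23), and *Ttll1* (-1.24) and *Ttll7* (-1.13) were called lower. *Ttll7*, which adds glutamate chains to beta tubulin, fell in heart (-1.67 ± 0.28, adjusted p = 0.000134) and in tail (-1.06 ± 0.28, adjusted p = 0.00737), and *Ttll12* fell in heart (-1.14 ± 0.14, adjusted p = 7.35e-06), short of the limit without HFs replicate 3 (-0.99). The medians were 0.02, 0.46 and -0.01 in heart, kidney and tail.

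**Figure D5:**
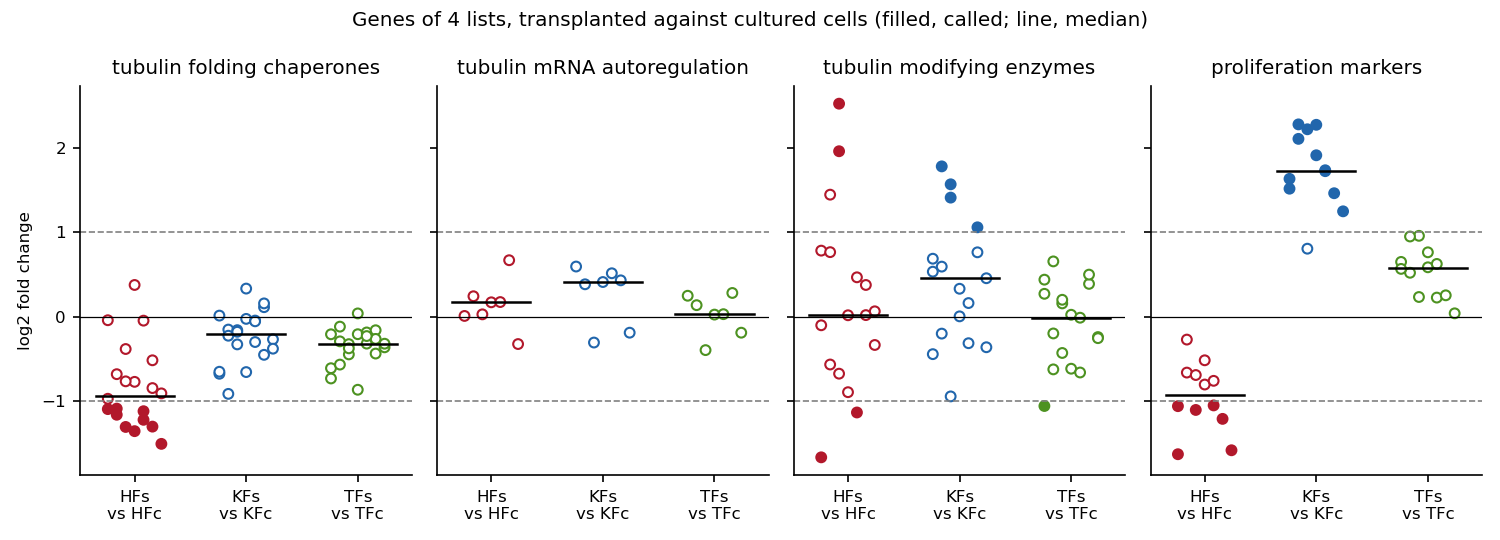
Log2 fold change of the tested genes of 4 lists in transplanted against cultured cells of heart, kidney and tail. Filled points were called, lines are medians, and dashed lines mark the limits of the call. Folding chaperones have 9 called genes, all lower, in heart and none elsewhere, and proliferation markers have 6 called lower in heart and 11 called higher in kidney. Among all genes 9.33% were called lower in heart and 14.7% higher in kidney.

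Among 20 microtubule stabilizers and plus-end proteins, 3 rose and 4 fell in heart, 1 rose and 4 fell in kidney, and 2 rose and 1 fell in tail. Of all genes 18.3% rose and 9.33% fell by the same rule in heart, 14.7% and 7.99% in kidney, and 11.0% and 5.53% in tail. *Map2*, known from dendrites, had 321, 328 and 289 CPM in HFc and 39.0, 39.8 and 36.9 CPM in HFs and fell by 2.96 ± 0.22 on the log2 scale (adjusted p = 5.06e-08). *Map6*, which protects microtubules from cold, fell in all 3 organs, by 2.41 ± 0.09 in heart (adjusted p = 1.78e-10), 1.63 ± 0.09 in kidney (adjusted p = 4.71e-09) and 1.18 ± 0.09 in tail (adjusted p = 1.75e-07). *Map1a* fell in kidney by 1.51 ± 0.13 (adjusted p = 3.74e-07). *Mapt*, the gene of tau, was scarce, with 0 to 0.484 CPM in HFc and 1.24 to 6.16 CPM in HFs, and rose in heart (3.42 ± 0.74, adjusted p = 0.00109) and tail (2.48 ± 0.72, adjusted p = 0.0128). *Dclk1*, a doublecortin-like kinase that binds microtubules, rose in heart (1.61 ± 0.37, adjusted p = 0.00164) and tail (1.70 ± 0.37, adjusted p = 0.00206). Further calls, named after their values were seen, were *Mtus1* higher and *Map1b* and *Mapre1* lower in heart, and *Dclk1* higher and *Map2* and *Mtus1* lower in kidney. *Mapt* stood at 2.40 in heart without HFs replicate 2, and its call in tail was lost without TFc replicate 1 or TFs replicate 1. In kidney the calls were lost for *Map2* without KFc replicate 3 (-0.96) or the library labelled KFs replicate 3 (-0.90) and for *Dclk1* without KFs replicate 1 (0.87), and without the library labelled KFs replicate 3 *Map1b* (-1.04) and *Mapre3* (-1.16) were called lower.

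Among 10 tested destabilizers and severing enzymes, 5 rose in kidney and none fell, beside 14.7% of all genes called higher and 7.99% lower. The median log2 fold change of the 10 was 1.23. Those that rose were the neuronal stathmins *Stmn4* and *Stmn2*, which hold tubulin dimers away from microtubules, the mitotic depolymerase *Kif2c*, and *Fign* and *Fignl1* of the fidgetin family. *Stmn4* had 0.0748, 0.141 and 0.302 CPM in KFc and 3.25, 6.43 and 10.1 CPM in KFs and rose by 5.12 ± 0.57 on the log2 scale (adjusted p = 9.17e-06). *Stmn2* had 0.436 to 0.598 CPM in KFc and 2.54, 3.94 and 21.7 CPM in KFs, with the highest value in the library labelled KFs replicate 3, and rose by 4.05 ± 0.63 (adjusted p = 8.82e-05), or by 2.65 ± 0.34 without that library (adjusted p = 8.45e-06). In tail *Stmn4* was called, at 0 counts in TFc and 1 to 2 counts in TFs, and the call was lost without any 1 of the TFc libraries or without TFs replicate 3. In heart *Fign* rose (1.91 ± 0.28, adjusted p = 4.24e-05) and *Fignl1* fell (-1.15 ± 0.45, adjusted p = 0.0403). The call of *Fignl1* was lost without any 1 of the HFc libraries, HFs replicates 1 or 2, or TFc replicates 2 or 3, and its value was -1.92 without HFs replicate 3. Of the 11 genes of the gamma-tubulin complex, *Tubg1* in heart and *Tubg2* in kidney were the calls, and none was called in tail by edgeR or DESeq2, where 3 had an unadjusted p under 0.05.

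Proliferation markers fell in heart cells and rose in kidney cells. Of all genes 9.33% were called lower and 18.3% higher in heart, 7.99% and 14.7% in kidney, and 5.53% and 11.0% in tail. Of 12 markers, 6 fell and none rose in HFs (median -0.93), 11 rose and none fell in KFs (median 1.73), and none was called in TFs by edgeR or DESeq2 (median 0.58, 4 with an unadjusted p under 0.05). Their summed level was 579.6 to 629.8 CPM in HFc and 308 to 424 CPM in HFs, 219.6 to 224 CPM in KFc and 629 to 1193 CPM in KFs, and 402 to 432 CPM in TFc and 422 to 1059 CPM in TFs. The tubulin sum per length overlapped between KFs and KFc while the summed markers were apart. *Mki67*, the usual marker of cycling cells, had 80.1, 81.8 and 83.4 CPM in KFc and 351, 573 and 291 CPM in KFs and rose by 2.28 ± 0.31 on the log2 scale (adjusted p = 2.68e-05). *Mcm2*, a subunit of the replicative helicase, fell in heart (-1.59 ± 0.24, adjusted p = 5.35e-05) and rose in kidney (1.25 ± 0.24, adjusted p = 0.000491), where it was not called without KFs replicate 2 (0.94). In heart DESeq2 called 5 of the 12 markers. Without HFs replicate 2 the heart calls of *Aurkb* (-0.98), *Bub1* (-0.91) and *Ccnb1* (-0.97) were lost. Those of *Aurkb* and *Ccnb1* were also lost without HFs replicate 3, *Aurkb* without HFc replicate 2, and *Bub1* without HFc or HFs replicate 1. Whether tubulin levels follow proliferation was not tested. Of 4 other cytoskeletal genes, *Actb* (-1.27 ± 0.17, adjusted p = 1.47e-05), *Acta2* (-1.85 ± 0.34, adjusted p = 0.00024) and *Vim* (-1.22 ± 0.13, adjusted p = 1.58e-06) fell in heart, *Acta2* fell in kidney (-2.18 ± 0.34, adjusted p = 8.33e-05), and *Acta2* (-2.39 ± 0.34, adjusted p = 6.62e-05) and *Vim* (-1.06 ± 0.13, adjusted p = 1.49e-05) fell in tail.

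Markers of host kidney moved with transplantation and therefore with the tubulin differences in heart. Of all genes 18.3% were called higher in heart, 14.7% in kidney and 11.0% in tail. Of 10 proximal tubule markers, 10 were called higher in HFs, 8 in KFs and 10 in TFs, and the list summed to 21.2 to 23.7 CPM in HFc and to 137, 1058 and 108 CPM in HFs, with HFs replicate 2 far above the others. In TFs, where tubulin sums overlapped those of culture, it summed to 143 to 332 CPM. In kidney the sum of this list overlapped, at 104 to 112 CPM in KFc and 60 to 122 CPM in KFs. There 2 of the 10 markers had a negative log2 fold change. Markers of the loop, distal tubule and collecting duct summed to at most 0.369 CPM in cultured and 10.9 to 73.9 CPM in transplanted libraries, and 5 erythroid genes to 0 and 0.12 to 38.7 CPM. Of 6 endothelial markers, 5 were called higher in HFs, and the list summed to 37.7 to 40.3 CPM in HFc and 53.3 to 60.5 CPM in HFs. Leukocyte markers, of which 7 were listed, summed to 69.5 to 81.4 CPM in HFc and 70.9 to 123 CPM in HFs, to 362 to 375 CPM in KFc and 12.4 to 115 CPM in KFs, and to 166 to 198 CPM in TFc and 33.9 to 40.5 CPM in TFs. The fibroblast markers rose in most cases, with 6 of 8 called higher in HFs and KFs and 5 in TFs, while *Thy1* fell in HFs (-1.91 ± 0.27, adjusted p = 2.83e-05). The count of called members in HFs was 9 without HFs replicate 2, the library with the most proximal tubule RNA. The part of other cells' RNA in the tubulin values was not tested.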

How the data were processed

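RNA of cultured and transplanted fibroblasts was sequenced with the SMARTer Stranded Total RNA-Seq Pico kit, and the deposited table holds RSEM expected counts per Ensembl gene that the authors made, as whole numbers. The submitters' processing notes name Bowtie, RSEM and mm9, whereas the study's methods name GRCm38. Positions given here are from GENCODE M21 on GRCm38 and play no part in the counts. Library totals ran from 17927838 to 32245168, and of 38924 rows 37607 had a symbol. No pair of replicate libraries agreed within sampling noise (chi-square per gene 4.74 to 258).

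The members and all lists were chosen with earlier results of these data known. Counts were fitted with edgeR 4.0.16 in R 4.3.3 (TMM, filterByExpr, quasi-likelihood test, all 18 libraries, 1 mean per group, 16577 genes, Benjamini-Hochberg adjustment over all of them). Transplant comparisons were called at an adjusted p under 0.05 and a log2 fold change past 1, organ and response comparisons at the adjusted p alone. SE is the log2 fold change divided by the square root of F. The fit was tested on simulated data with 1 spread for all genes and groups, which does not cover the unequal spread of these libraries. CPM are counts per 1000000 of the library total. Level per length divides counts by the union of exons and scales each library to a sum of 1000000. Named genes were all members, the 2 largest called rises and falls without overlap in each list and comparison, all genes of lists with at most 12 tested genes where described, the 5 genes most like the summed members, and the markers. Alternatives were DESeq2 1.42.0, its size factors, library size alone, other filters and limits, the compared groups alone, summed paralogs, a replicate block and leaving out each library. Same-numbered libraries of compared groups deviated together by r of -0.0423 to 0.045, so the numbers were not taken as pairs. The promoters of *Tubb2b* and *Tubb6* were not analysed here. Some coding ends and a marker list were left out and are not reported here.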

Additional observations from a re-analysis of the deposited data

Results flagged for a closer look

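The response to transplantation differed between organs for the following genes by a test of the difference of log2 fold changes in the edgeR fit (adjusted p under 0.05), and for members of the list these values are a description of the genes the list was chosen for. The values are differences of log2 fold changes, and the 3 comparisons share groups.

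For heart minus tail, 8 of 10 members were picked out, *Tuba1a* at -2.22, *Tuba1b* at -1.78, *Tubb2a* at -1.83, *Tubb2b* at -4.14, *Tubb3* at -3.66, *Tubb4b* at -1.62, *Tubb5* at -1.07 and *Tubb6* at -1.49. Of the other microtubule genes named in the text, the heart response was lower for *Tubb4a* (-3.42), *Map2* (-2.17), *Fignl1* (-2.01), *Map6* (-1.23), *Cct7* (-1.15) and *Tubg1* (-0.8), and higher for *Vash2* (2.33), *Agbl5* (1.81) and *Fign* (1.73).

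For heart minus kidney, 9 members were picked out, *Tuba1a* at -2.13, *Tuba1b* at -1.82, *Tuba1c* at -1.5, *Tubb2a* at -0.71, *Tubb2b* at -1.93, *Tubb3* at -3.43, *Tubb4b* at -1.44, *Tubb5* at -1.06 and *Tubb6* at -1.37. The heart response was also lower for *Tubb4a* (-3.59), *Fignl1* (-2.77), *Map2* (-1.77), *Cct7* (-1.24), *Ttll7* (-1.23), *Tubg1* (-1.05), *Ttll12* (-0.82), *Map6* (-0.78) and *Pfdn4* (-0.7), and higher for *Mapt* (3.25), *Tubg2* (1.5) and *Map1a* (0.77).

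For kidney minus tail, *Tubb2a* stood at -1.12 and *Tubb2b* at -2.21. The kidney response was lower for *Tubg2* (-1.12) and *Map6* (-0.44) and higher for *Stmn2* (3.85), *Fign* (1.7), *Vash2* (1.37) and *Agbl5* (1.26). *Stmn2* had 21.7 CPM in the library labelled KFs replicate 3 and 2.54 and 3.94 CPM in the other KFs libraries, and without the former its difference was 2.46.

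Several of these calls rest on single libraries. For at least 1 of the libraries left out, the call ended for *Tubg1* and *Fignl1* in heart minus tail. The same held for *Agbl5*, *Tubg2* and *Map6* in kidney minus tail. In heart minus kidney it held for *Ttll7*, *Pfdn4*, *Mapt* and the member *Tubb2a*, the last 2 without HFs replicate 2 (*Mapt* at 2.25). Without the library labelled KFs replicate 3 *Ttll7* stood at -0.52 and *Tubb4a* at -2.83 in heart minus kidney, and without HFs replicate 3 *Fignl1* stood at -2.79 in heart minus tail and -3.53 in heart minus kidney.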

How the results depend on the processing

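The count of members called in HFs against HFc was 9 or 10 under all 27 alternatives, and all 260 fold changes of the members in that comparison kept their sign. The list was chosen with this contrast in view and the alternatives reuse the same libraries, so nothing is read from this steadiness. With no limit on the fold change, 4 members were called in KFs against KFc (all lower, as were 22.7% of all genes). In TFs against TFc 5 were called (2 higher and 3 lower, as were 18.6% and 20.2% of all genes). Of the 89 microtubule genes tested, 56, 48 and 35 were called by that rule in heart, kidney and tail. The highest counts over all genes under any alternative were 9353, 8091 and 6433 there, where the main fit tested 16577 genes. A log2 limit of 1 left 3 members in HFc against KFc, 2 in HFs against TFs, 2 in KFs against TFs and 4 in HFs against KFs, and an adjusted p under 0.01 left 5 in HFc against KFc. Fits of the compared groups alone called 8 in KFc against TFc, 2 in KFs against TFs and 1 in HFs against KFs. Scaling by library size alone called 8 in HFs against TFs. The calls over all genes also moved over the alternatives, from 2703 to 8675 in KFc against TFc and from 1137 to 5944 in KFs against TFs. They ran from 883 to 6657 in HFs against KFs and from 1722 to 5720 in HFs against TFs. Leaving out 1 library gave 9 to 10 members in HFs against HFc, 0 to 1 in KFs against KFc, 1 to 2 in TFs against TFc, 8 to 9 in HFc against TFc, 4 to 5 in KFc against TFc, 5 to 8 in HFc against KFc, 5 to 7 in HFs against TFs, 3 to 6 in KFs against TFs and 9 to 10 in HFs against KFs, 8 to 9, 2 to 3 and 8 to 9 for the response of heart to tail, kidney to tail and heart to kidney, and 22 to 26, 13 to 18 and 4 to 6 microtubule genes in heart, kidney and tail. With the replicate block the members called were 10 in heart, 0 in kidney, 1 in tail and 6 in HFc against KFc, so the block moved no count of members by over 1.5 times. The mean summed level per length was 4060.4 in HFc, 2098 in KFc, 1799 in TFc and 1821 in TFs with the mean length of coding transcripts, and 1824, 454, 842, 754, 659 and 638 in HFc, HFs, KFc, KFs, TFc and TFs with TMM-scaled counts per kilobase, a scale of its own. Of the 5 most similar genes, 2 were shared when log2 TMM-normalized CPM with a prior count of 2 were used. Over all genes the calls ranged from 3769 to 9353 in heart, where the main count was 4585. The cause of these differences was not tested, apart from the limits and the smaller sets of libraries, which change the count by construction.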
